A study of Rattus norvegicus with 6 samples.

Results

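Tissue inhibitors of metalloproteinases (TIMPs) and the protease inhibitors RECK and A2M were followed in primary rat chondrocytes treated with retinoic acid (RA). The 6 genes Timp1, Timp2, Timp3, Timp4, Reck and A2m were chosen by their gene symbol, and each symbol matched 1 of the 18923 genes in the files. The CON group held 3 samples of wild-type chondrocytes kept for 24 h in high-glucose DMEM with 10% fetal bovine serum and antibiotics, and the RA group held 3 samples kept for 24 h in the same medium with 1 µM all-trans RA. The cells came from 24 h old female Sprague-Dawley rats, were freed from cartilage with type II collagenase and were used at passage 1 or 2. No solvent control is named in the labels. The samples are described as independent, but animals per sample are not given, so the p-values measure the spread between these samples.

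TIMPs are small secreted proteins that sit in the active site of a metalloproteinase and block it. TIMP1, TIMP2 and TIMP4 are largely soluble, while TIMP3 binds to the extracellular matrix (ECM) and also blocks ADAM17 and the aggrecanases ADAMTS4 and ADAMTS5. RECK is anchored in the cell membrane and restrains several matrix metalloproteinases (MMPs), and alpha-2-macroglobulin (A2M) is a large circulating protein that traps many kinds of proteinase. In cartilage these inhibitors oppose the enzymes that cut type II collagen and aggrecan.

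For the 3 members that passed the adjusted threshold below, the 250 bases before the annotated gene start are shown, to show the proximal promoter of the members that changed. The sequences are from RefSeq (rat build GRCr8), are written 5′ to 3′ in the direction of the gene, and capitals mark the GC box GGGCGG on either strand.
Timp3 (chr7:19459559-19459808, minus strand): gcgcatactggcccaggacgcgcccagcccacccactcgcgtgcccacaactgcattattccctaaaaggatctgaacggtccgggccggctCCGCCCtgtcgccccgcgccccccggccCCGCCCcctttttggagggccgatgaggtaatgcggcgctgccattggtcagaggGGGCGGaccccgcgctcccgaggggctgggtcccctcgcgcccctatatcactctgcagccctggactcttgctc
Timp2 (chr10:104089215-104089464, minus strand): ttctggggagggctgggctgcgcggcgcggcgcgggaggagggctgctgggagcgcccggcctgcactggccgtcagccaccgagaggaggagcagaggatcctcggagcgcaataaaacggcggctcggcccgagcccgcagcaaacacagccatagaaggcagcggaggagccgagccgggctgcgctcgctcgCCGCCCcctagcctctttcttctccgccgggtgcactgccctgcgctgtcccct
Reck (chr5:62898467-62898716, plus strand): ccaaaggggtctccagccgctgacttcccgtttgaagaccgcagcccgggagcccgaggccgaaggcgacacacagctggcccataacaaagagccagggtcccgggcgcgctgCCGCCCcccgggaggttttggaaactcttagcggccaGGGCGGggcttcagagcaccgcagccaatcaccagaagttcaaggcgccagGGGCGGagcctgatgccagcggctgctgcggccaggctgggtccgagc
All 3 windows were rich in G and C, with 69.6% for Timp3, 72% for Timp2 and 68.4% for Reck against a median of 51.2% over 33469 windows of the same length. Timp3 and Reck each held 3 GC boxes and Timp2 held 1, while 30.5% of all windows held at least 1 and 7.41% held 3 or more. The retinoid receptor half-site AGGTCA, the AP-1 site TGANTCA and the TATA box TATAAA, searched on both strands, were not found in these 3 windows, and 14.1%, 6.34% and 12.9% of all windows held them. The windows of Timp1 (61.2% G and C, 1 GC box) and Timp4 (50.8%, no GC box) also lacked those exact letters, so all 5 windows shared that. These matches describe letters only. Other forms of the same sites were not searched, so the windows may hold them. The table held windows for 5 of the 6 members, all but A2m.

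Expression was measured as reads counted per gene, and levels are given as FPKM, the count divided by gene length and by library depth. Total counts ran from 29370025 to 38007486 per sample. The filter on low counts kept 13438 of the 18923 genes, all 6 members among them, and these were tested with edgeR's quasi-likelihood test. A gene was taken as a DEG at a p below 0.05 after Benjamini-Hochberg adjustment together with a change beyond 0.58 on the log2 scale. The rule called 4.96% of all tested genes (2.67% higher and 2.29% lower in RA), and the adjusted p alone called 9.82% (5.31% higher and 4.50% lower). One member, Timp3, was a DEG and fell. Timp2 and Reck passed the adjusted p and rose by less than the fold limit, and Timp1, Timp4 and A2m did not pass.

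Timp3 (ENSRNOG00000004303) was the member with the largest change. Its level was 367, 332 and 321 FPKM in the CON samples 1, 2 and 3, and 176, 187 and 184 FPKM in the RA samples 1, 2 and 3. Each RA sample lay below each CON sample, with a mean of 340 ± 23.8 for CON and 182 ± 5.55 FPKM for RA (SD, n = 3 each). The reads behind these levels numbered 17512 to 21335 per CON sample and 9144 to 9967 per RA sample. The log2 fold change was -0.91 (standard error 0.0645, 95% interval -1.06 to -0.76, adjusted p = 1.04e-04, edgeR), which is a 1.88-fold lower level in RA. Of all tested genes, 13.3% had groups that did not overlap with RA lower. Dropping single samples gave values between -0.94 and -0.86, and Timp3 was a DEG in all 6 such fits. In bulk RNA, fewer cells of a type and less RNA per cell cannot be told apart.

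Timp2 (ENSRNOG00000003148), whose protein blocks MMPs and also takes part with MMP14 in activating pro-MMP2, was the most abundant member. It had 545, 567 and 576 FPKM in the CON samples and 655, 665 and 694 FPKM in the RA samples. The groups did not overlap, with means of 563 ± 16.3 and 671 ± 20.3 FPKM (SD, n = 3 each). Of all tested genes, 32.2% had groups that did not overlap, 18.9% with RA higher. The log2 fold change was 0.24 (standard error 0.0534, 95% interval 0.12 to 0.36, adjusted p = 0.0246, edgeR), or 18.2% more in RA. The adjusted p rose above 0.05 on dropping CON sample 2 (0.0994) or any RA sample (0.0665, 0.116 and 0.153 without samples 1, 2 and 3), while the log2 fold change stayed between 0.22 and 0.27.

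Timp1 (ENSRNOG00000010208), the classical inducible TIMP, had 285, 352 and 341 FPKM in the CON samples and 347, 351 and 339 FPKM in the RA samples. The groups overlapped, and CON sample 1 was the one low value. Means were 326 ± 35.6 for CON and 345 ± 5.97 FPKM for RA (SD, n = 3 each). The log2 fold change was 0.071 (standard error 0.0839, adjusted p = 0.651, edgeR), and its 95% interval of -0.12 to 0.26 leaves out a change of the size of that of Timp3. Without CON sample 1 the value was -0.019 (adjusted p = 0.833, edgeR).

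Timp4 (ENSRNOG00000007955), a TIMP known mainly from heart and other muscle, was barely expressed. Its reads numbered 21, 55 and 67 in the CON samples and 54, 61 and 76 in the RA samples, or 0.402, 1.07 and 1.04 FPKM and 1.07, 1.22 and 1.44 FPKM. CON sample 1 was again the low one, and RA sample 1 fell between the other two CON samples. The log2 fold change of 0.55 had a standard error of 0.351 (95% interval -0.25 to 1.36, adjusted p = 0.381, edgeR). Without CON sample 1 it was 0.22.

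Reck (ENSRNOG00000014863), the membrane-anchored inhibitor, had 60.5, 60 and 58.8 FPKM in the CON samples and 76.4, 79.4 and 82.9 FPKM in the RA samples. The CON samples lay close together and the RA samples were all higher, with means of 59.8 ± 0.842 and 79.5 ± 3.26 FPKM (SD, n = 3 each). The log2 fold change was 0.40 (standard error 0.0565, 95% interval 0.27 to 0.53, adjusted p = 0.0032, edgeR), or 31.9% more in RA. The adjusted p stayed below 0.05 whichever of the 6 samples was dropped, at most 0.0282, with log2 fold changes from 0.37 to 0.44.

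A2m (ENSRNOG00000028896), the broad proteinase trap, was low, with 1.79, 2.12 and 2.64 FPKM in the CON samples and 3.26, 3.17 and 1.89 FPKM in the RA samples. RA sample 3 fell among the CON samples, and the other two RA samples lay above them. The log2 fold change was 0.33 (standard error 0.226, 95% interval -0.19 to 0.84, adjusted p = 0.422, edgeR). Without RA sample 3 it was 0.54 (adjusted p = 0.169, edgeR). Dropping CON sample 1 gave 0.20, and dropping sample 1 or 2 of RA gave 0.20 or 0.21.

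**Figure D1:**
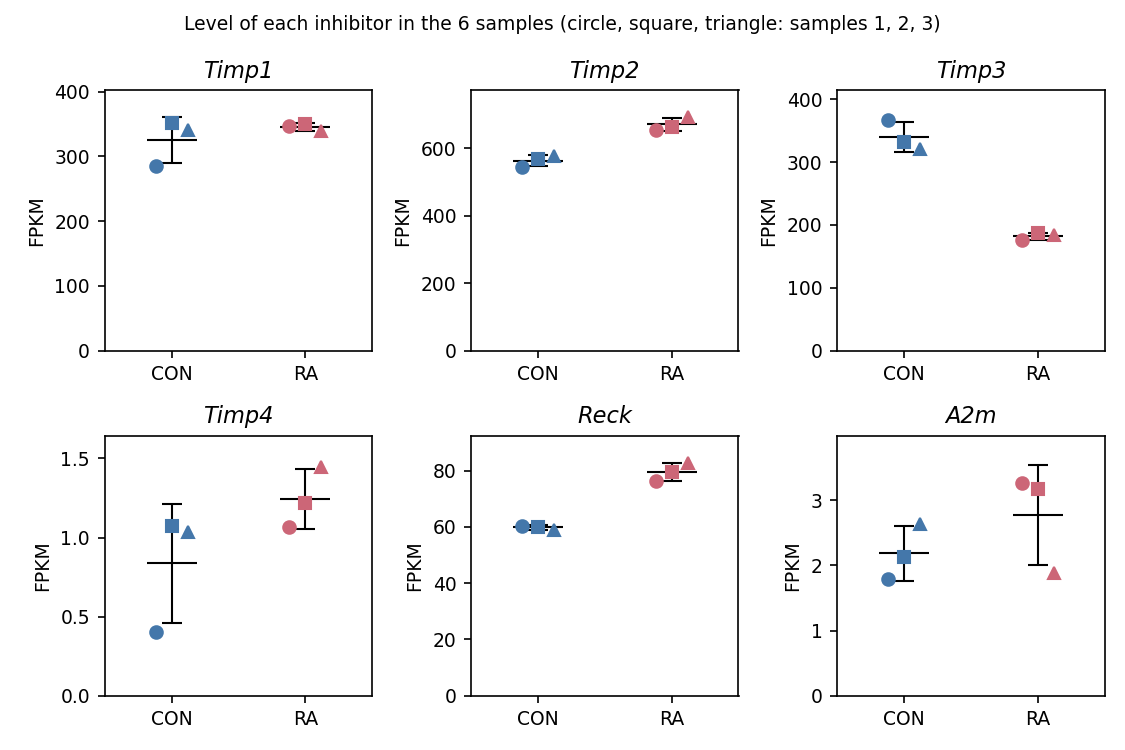
FPKM of the 6 inhibitor genes in each sample, with 1 panel per gene and its own axis from 0. Points are the CON samples (blue) and RA samples (red) 1 to 3, and bars give the mean ± SD (n = 3). Timp3 drops from 340 to 182 FPKM, Timp2 and Reck shift upward without overlap, and Timp1, Timp4 and A2m overlap between the groups.

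**Figure D2:**
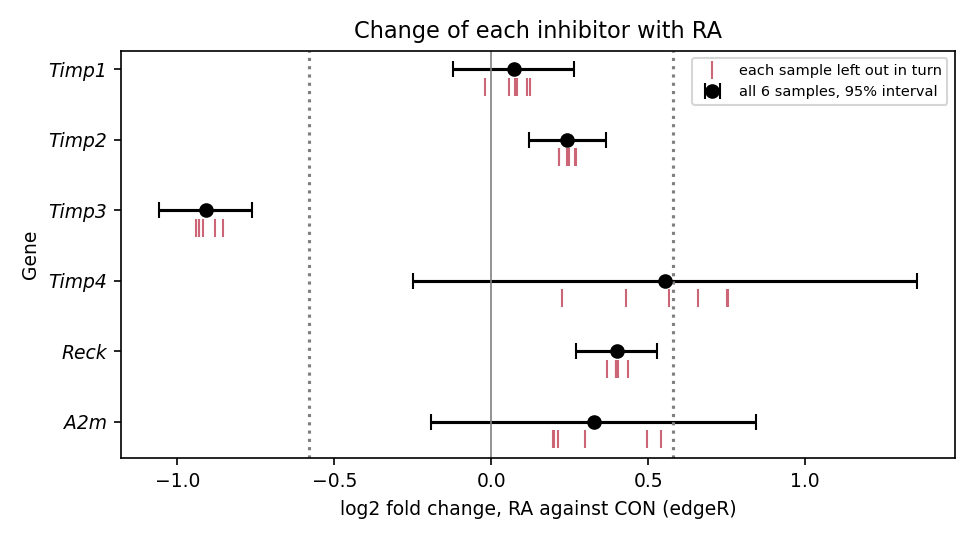
Log2 fold change of each inhibitor in RA against CON from edgeR, with its 95% interval (black) and the 6 values with each sample left out in turn (red ticks). Dotted lines mark the fold limit of 0.58. Timp3 lies wholly below the lower line at -0.91, Reck (0.40) and Timp2 (0.24) lie above 0 but inside the limit, and the intervals of Timp1, Timp4 and A2m include 0.

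By level the members fell in the order Timp2, then Timp3 and Timp1, then Reck, A2m and Timp4 in CON, where the ranges of Timp3 and Timp1 overlapped. Within a sample, the ratio of Timp1 to Timp3 was 0.778, 1.06 and 1.06 in CON, so Timp3 exceeded Timp1 in CON sample 1 only. In RA the same ratio was 1.97, 1.88 and 1.84, so Timp1 stood above Timp3 in all 3 samples, as in the other two CON samples but by more. By mean FPKM over the 6 samples, Timp2, Timp1 and Timp3 ranked 99, 200 and 252 of the 13438 tested genes, Reck ranked 1078, A2m 9990 and Timp4 11294.

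Ratios within a sample do not depend on the scaling between samples. The ratio of Timp2 to Timp3 was 1.48, 1.71 and 1.79 in CON and 3.72, 3.56 and 3.77 in RA, and its mean was 2.21 times as high in RA. The ratio of Timp3 to Reck was 6.06, 5.53 and 5.46 in CON and 2.31, 2.35 and 2.22 in RA. Between the members that rose, Timp2 to Reck was 9.00, 9.45 and 9.79 in CON and 8.58, 8.37 and 8.38 in RA. This ratio was also lower in each RA sample, by a smaller margin, with the mean in RA at 0.897 times that in CON.

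The summed level of the 4 TIMP genes was 1197, 1252 and 1239 FPKM in CON and 1179, 1203 and 1219 FPKM in RA. The groups overlapped through CON sample 1 only, since CON samples 2 and 3 lay above each RA sample. Means were 1229 ± 28.7 for CON and 1200.4 ± 20 FPKM for RA (SD, n = 3 each), while the make-up of the family differed as follows. Of the summed FPKM of all 6 members, Timp3 made up 29.1%, 25.3% and 24.7% in the CON samples and 14%, 14.5% and 14.1% in the RA samples. The share of Timp2 was 43.2%, 43.2% and 44.3% in CON and 52.1%, 51.7% and 53.2% in RA. The share of Timp1 was 25.2% ± 2.23 and 26.9% ± 0.817, with overlap, and this difference of 1.73 percentage points was 0.458 without CON sample 1. The share of Reck went from 4.63% ± 0.15 to 6.2% ± 0.147 (SD, n = 3 each). A share of transcripts is not a share of protein, which was not measured for these genes.

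**Figure D3:**
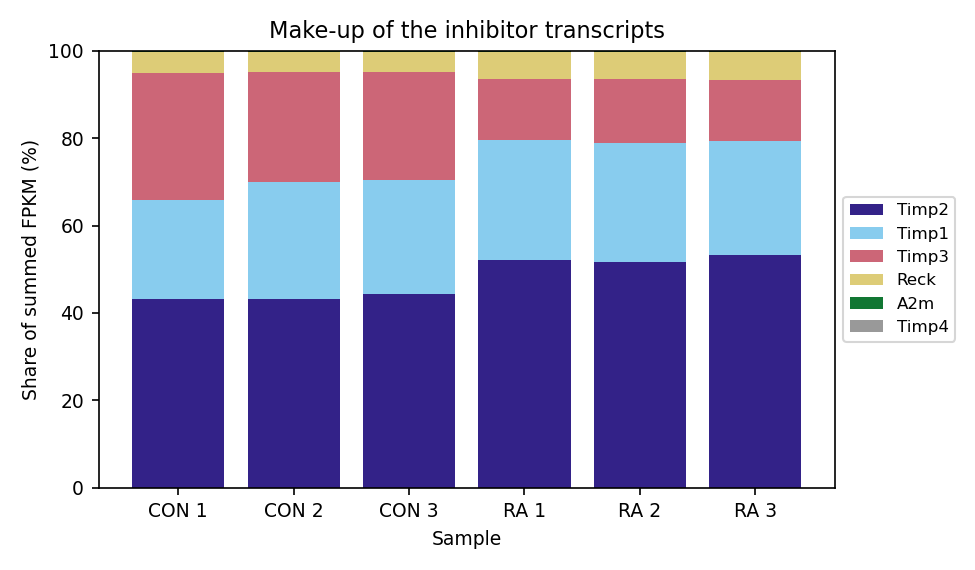
Share of each inhibitor in the summed FPKM of the 6 genes, as stacked bars for the 3 CON and 3 RA samples (percent). The Timp3 band narrows from 26.4% to 14.2% on average and the Timp2 band widens from 43.6% to 52.3%, while A2m and Timp4 are too low to see.

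The proteinases that these inhibitors act on were counted next. The MMP list held 24 names, of which 19 were in the files and 12 were tested. Of the 12, 3 were DEGs, all higher in RA, against a background of 2.67%, none fell by the adjusted p, and the median log2 fold change was 0.19 against -0.0057 over all tested genes. The DEGs were Mmp13, the main collagenase of cartilage, with a log2 fold change of 2.26, the gelatinase Mmp9 with 2.88 and the stromelysin Mmp3 with 1.02. Mmp9 stayed low, at 0.134 ± 0.067 for CON and 0.976 ± 0.229 FPKM for RA (SD, n = 3 each). The summed level of the MMP genes in the files ran from 486 to 510 FPKM in CON and from 734 to 788 FPKM in RA. Mmp13 made up most of this rise, with 50.9 ± 12.1 for CON and 246 ± 20.5 FPKM for RA (SD, n = 3 each). Mmp14 and Mmp2, the partners of Timp2 in pro-MMP2 activation, had log2 fold changes of 0.20 (adjusted p = 0.0602, edgeR) and 0.17 (adjusted p = 0.158, edgeR) and were not DEGs.

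Of 27 ADAM and ADAMTS names, 26 were in the files and 24 were tested, with a median log2 fold change of 0.036. There were 2 DEGs higher in RA and 3 lower, against backgrounds of 2.67% and 2.29%, while by the adjusted p alone 7 were higher and 3 lower, against 5.31% and 4.50%. Adamts8 had a log2 fold change of 3.21 and Adamts7 of 0.67, and both stayed at or below a mean of 3.65 FPKM. Adamts8 had 7, 5 and 8 reads in the CON samples and 52, 62 and 59 in the RA samples. Its means were 0.0666 and 0.636 FPKM. It passed the filter on low counts through the RA samples, and the size of its change rests on few CON reads. Adamts12 had -1.10, Adamts15 -1.08 and Adam33 -0.99. The calls of Adamts15 and Adam33 each held for 3 of the 6 samples dropped singly, and the list had 3 DEGs without CON sample 2 or RA sample 3. Among the most abundant, Adamts1 (0.42, adjusted p = 0.0131) and Adam12 (0.44, adjusted p = 0.0065, both edgeR) passed the adjusted p inside the fold limit, as did Adam10 (0.39), Adamts9 (0.28) and Adamts14 (0.41), named once their values were known. Adam17, a sheddase that TIMP3 inhibits, had -0.20 (adjusted p = 0.095, edgeR). The aggrecanases Adamts5 and Adamts4, singled out after their values were seen, had -0.18 (adjusted p = 0.237) and 0.034 (adjusted p = 0.886, both edgeR), with overlapping groups.

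**Figure D4:**
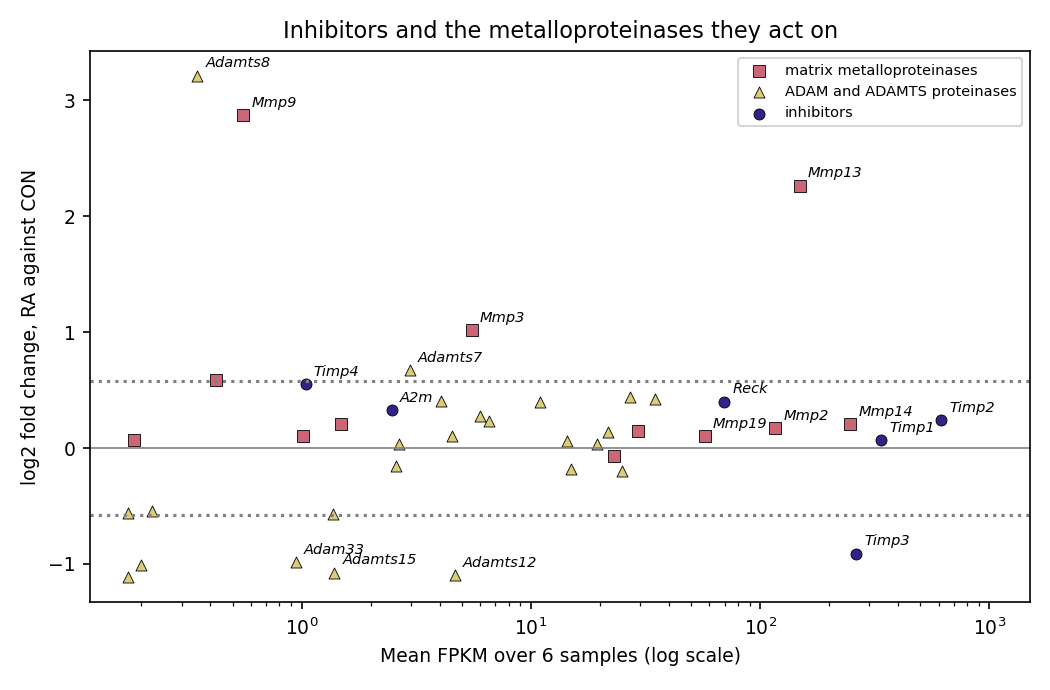
Log2 fold change in RA against CON plotted over mean FPKM on a log axis, for the 6 inhibitors (circles), 12 MMP genes (squares) and 24 ADAM and ADAMTS genes (triangles) that were tested. Dotted lines mark the fold limit of 0.58 in either direction. Timp3, at -0.91, is the one gene with a mean above 10 FPKM below the lower line, and Mmp13, at 2.26, the one above the upper line.

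Set against Timp3 within each sample, the level of Mmp13 was 0.175, 0.143 and 0.127 times that of Timp3 in CON and 1.45, 1.19 and 1.42 times in RA. The Mmp13 transcript thus went from below to above the Timp3 transcript in all samples. The mean ratio was 9.10 times as high in RA. Against Timp1 it was 4.46 times and against Timp2 4.03 times as high. The ratio of Mmp14 to Timp3 was 0.627, 0.657 and 0.732 in CON and 1.48, 1.39 and 1.48 in RA. The ratio of Mmp14 to Timp2 overlapped between the groups, at 0.405 ± 0.0188 and 0.394 ± 0.00407 (SD, n = 3 each). Other ratios were lower in each RA sample than in any CON sample. The mean in RA was 0.874 times that in CON for Mmp14 to Reck, 0.952 times for Mmp2 to Timp2, 0.735 times for Adam17 to Timp2 and 0.671 times for Adamts5 to Reck. Against Timp3 the same enzymes went the other way, with means in RA 1.64 times as high for Adam17 and 1.65 times as high for Adamts5, without overlap. The fall of Timp3 enters every ratio to Timp3, so these are not separate results. All these ratios compare transcripts per length and not enzyme with bound inhibitor.

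**Figure D5:**
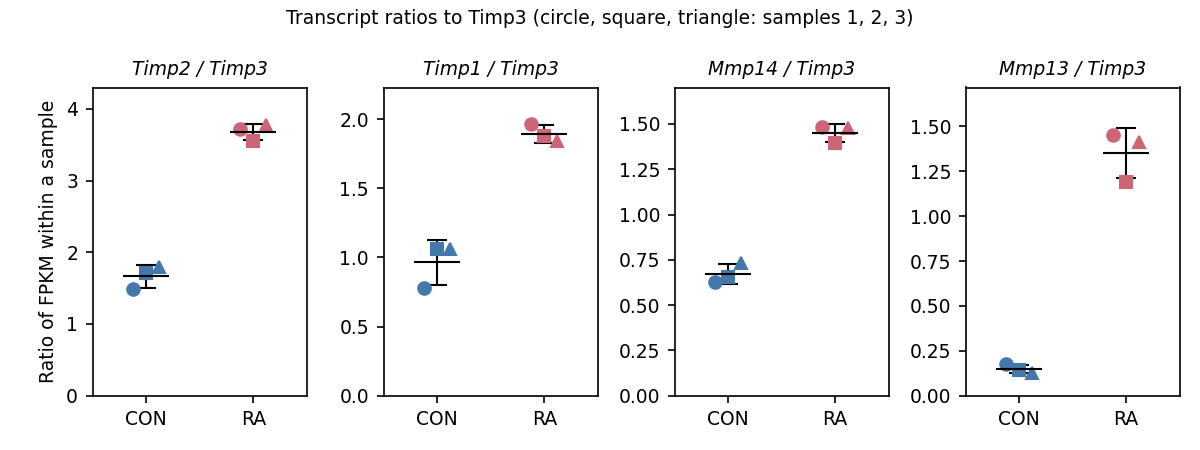
Ratio of the FPKM of Timp2, Timp1, Mmp14 and Mmp13 to that of Timp3 within each sample, with 1 panel per ratio and its own axis from 0. Points are samples 1 to 3 of CON (blue) and RA (red), and bars give the mean ± SD (n = 3). All 4 ratios are higher in each RA sample than in any CON sample, and that of Mmp13 moves from 0.149 to 1.35 on average. The 4 ratios share Timp3, so its fall enters each of them and they are not separate results.

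Genes of proteins that bind or clear these inhibitors were 11 in number, and 10 were tested, with a median log2 fold change of 0.28. The 2 DEGs were higher in RA, against a background of 2.67%. Itga3, the alpha chain of an integrin that TIMP2 binds, had a log2 fold change of 1.93. Efemp1, the gene of a fibulin that binds TIMP3, went from 2.98 ± 0.262 FPKM up to 4.79 ± 0.707 (SD, n = 3 each) with a log2 value of 0.67, and its call was lost on dropping sample 2 of either group or sample 3 of RA. Cd63, a tetraspanin that binds TIMP1 at the cell surface, and Itgb1 passed the adjusted p at 0.28 (adjusted p = 0.0234) and 0.27 (adjusted p = 0.0399, both edgeR), and Hspa5 had -0.21 (adjusted p = 0.141, edgeR). Lrp1, the receptor that takes up A2M and TIMP3 and was chosen once its values were known, had 0.45 (adjusted p = 0.0553, edgeR).

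Of 10 names of the alpha-2-macroglobulin family, 7 were in the files and 5 were tested, with a median of 0.054. The complement gene C3 was the 1 DEG, higher in RA against a background of 2.67%, with a log2 fold change of 1.46 at a level of 0.131 ± 0.0117 for CON and 0.365 ± 0.0947 FPKM for RA (SD, n = 3 each), and its call was lost without CON sample 2 or RA sample 2. Cd109, a membrane-anchored relative of A2M and the most abundant of the family, had means of 30.9 ± 3.51 FPKM and 24.4 ± 0.996 FPKM (SD, n = 3 each) and changed by -0.35 on the log2 scale (adjusted p = 0.0331, edgeR). The complement gene C4b had 0.054 (adjusted p = 0.95, edgeR). Among 23 names of other secreted protease inhibitors, 21 were in the files and 12 were tested, with a median of -0.084. Spint2, a Kunitz-type inhibitor of serine proteinases, had a log2 fold change of 0.82 and Wfdc1, which carries a WAP domain, 1.32, and Rarres1, related to carboxypeptidase inhibitors, had -0.87. These 3 were the DEGs of that list, 2 higher and 1 lower, against backgrounds of 2.67% and 2.29%. The call of Rarres1 was lost on dropping sample 1 or 2 of RA, when the list had 2, and without CON sample 1 the list had 5. The other abundant members of the list were Wfdc2 and Slpi, with log2 fold changes of 0.061 (adjusted p = 0.885) and 0.16 (adjusted p = 0.645, both edgeR) and overlapping groups.

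In the rat annotation (GRCr8), Timp1, Timp3 and Timp4 lie within the synapsin genes Syn1, Syn3 and Syn2, and Timp2 overlaps Cep295nl. Whether the counting used strand is not given in the sources used here. These 4 genes had mean levels of at most 0.756 FPKM in either group, and none of the 3 that were tested was a DEG. Timp1, Timp2 and Timp3 had means of 182 FPKM or more. Syn2, which was not tested, had 0.0117 FPKM in CON and 0.0425 in RA, against 0.837 and 1.24 FPKM of Timp4.

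The genes whose pattern over the 6 samples was most like that of a member were found among 8372 genes with a mean FPKM of at least 5, by the root mean square difference of log2 CPM centred on each gene's mean. For Timp3 they were Dlx5 (0.0396), Grb14 (0.045) and Clcn4 (0.052), with log2 fold changes of -0.89, -0.97 and -0.84. For Timp2 they included Pgam1 (0.0155) and Pgk1 (0.0215), and for Reck they were Pdlim1 (0.0192), Tm4sf1 (0.0202) and Npc1 (0.0315). For Timp1 the closest were Actr1b (0.0165), LOC108349548 (0.0179) and Micall1 (0.019). For Timp4 they were Prr7 (0.0455), Bloc1s3 (0.0743) and Smad6 (0.0888), and for A2m Procr (0.129), Diras3 (0.143) and Rtl6 (0.162). The closest gene to A2m was farther off than any gene given for the other members. The points share libraries and group, and the likeness is a description.

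The retinoid response was present, with 8 DEGs among 11 tested genes, 7 of them higher in RA and Rarres1 lower, against backgrounds of 2.67% and 2.29%. The retinoid hydroxylase genes Cyp26a1, Cyp26b1 and Cyp26c1 had log2 fold changes of 3.35, 2.65 and 2.12, the receptor gene Rarb 1.43, Tgm2 0.91 and the retinaldehyde reductase gene Dhrs3 0.63. The abundant Crabp2 had 0.40 on the log2 scale (adjusted p = 0.0859, edgeR). Without any 1 of the RA samples that list had 5 DEGs, and the call of Rarb held in 1 and that of Cyp26c1 in 2 of the 6 fits with a sample dropped. Of 17 chondrocyte markers, all were tested and 14 were DEGs, each lower in RA against a background of 2.29%, and the summed level ran from 44291 to 54605 CPM in CON and from 27505 to 29456 CPM in RA. This fall moved with that of Timp3, and its part in that result was not tested. The 9 fibroblast and perichondrium markers in the files ran from 19846 to 27090 CPM in CON and from 25755 to 27423 CPM in RA, so the cultures held abundant transcripts of that kind in both groups. Of these 9, 5 had log2 fold changes above 0, the median was 0.042, 1, Pdgfra, passed the adjusted p upward inside the fold limit (0.44), and 1, Postn, was a DEG and fell (-1.28, also with any 1 sample dropped), against a background of 2.29% lower. Macrophage markers summed to 22.8 to 26.0 CPM in CON and 27.4 to 29.9 CPM in RA, and muscle markers to 10.2 to 12.8 CPM and 15.0 to 16.7 CPM, so both sums were low and higher in each RA sample. Endothelial markers summed to 8.82 to 12.2 CPM in CON and 9.49 to 10.4 CPM in RA, and osteoblast markers to 40.4 to 44.2 CPM and 42.0 to 45.6 CPM, with overlap. The muscle gene Myod1 and the osteoblast gene Ibsp were DEGs, higher in RA against a background of 2.67%, while the osteoblast gene Alpl passed the adjusted p downward at -0.42 (adjusted p = 0.0219, edgeR). The call of Myod1 was lost in 3 of the 6 fits with a sample dropped, and the part of these cell types in the results was not tested. The endothelial marker Emcn had no reads, and Cdh5, Ptprc and Adgre1 had means of at most 0.0152 FPKM. CON sample 1 lay farthest from the other samples of its group, with a median absolute difference of 0.224 on the log2 scale, against 0.107 and 0.166 for CON samples 2 and 3 and at most 0.1 in RA.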

How the data were processed

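Poly(A) RNA of 6 chondrocyte samples was sequenced, 3 per group. The authors deposited raw read counts per gene without normalization, and beside each an FPKM value, which was checked to equal the count divided by gene length and total count. The submitters' processing notes name HISAT2, HTSeq 0.13.5 and the build Rnor_6.0. The annotation release and strand setting are not given in the sources used here.

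Counts were normalized by TMM and tested with edgeR 4.0.16 in R 4.3.3 (glmQLFit and glmQLFTest, no covariates, filterByExpr with a minimum count of 10). Standard errors were taken from the F statistic, and 95% intervals from its degrees of freedom. Where no read was counted, up to 3 reads remain possible, or 0.0789 to 0.102 CPM (counting error only). The fit was tested on simulated data. The members and gene lists were chosen with earlier results of these data known. Named genes were all members, up to 6 DEGs and the 3 most abundant genes of each list, and the 3 closest patterns per member, and 2 genes that this rule names are not reported here. Of the cell type marker lists, counts, sums and single examples chosen after their values were seen are given instead. A symbol shared by several identifiers was taken from the one with the highest mean count. Alternatives were RLE scaling, library totals, DESeq2 1.42.0, other filters, a replicate block, limma 3.58.1 on log2(FPKM + 0.1) and log2(FPKM + 1), other call rules, and leaving out each sample.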

Additional observations from a re-analysis of the deposited data

How the results depend on the processing

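Of 272 values recomputed under alternatives, 241 kept their direction and side of the threshold or moved by less than the limit set for them, and the cause of the others was not tested unless stated. The DEGs of 667 (359 higher, 308 lower) became 434 with 178 lower in limma on log2(FPKM + 1), which compresses low genes, 1017 with 513 lower by unadjusted p with the fold limit, and 1319 with 714 higher and 605 lower by adjusted p alone. With each sample left out in turn they ran from 480 to 755, from 265 to 387 higher and from 215 to 368 lower. Over the same fits the log2 fold change ran from -0.94 to -0.86 for Timp3, 0.22 to 0.27 for Timp2, 0.37 to 0.44 for Reck, -0.019 to 0.12 for Timp1, 0.22 to 0.76 for Timp4 and 0.20 to 0.54 for A2m. Timp2 lost its adjusted p in 4 of these fits, and Timp1 turned below 0 without CON sample 1. Timp3 and Reck kept an adjusted p below 0.05 under all 14 alternatives, and Timp2 under 10. The DEGs of the ADAM and ADAMTS list were 3 to 5 with a sample left out and 3 in limma on log2(FPKM + 1), those of the binding partners 1 to 2 and 1, those of the alpha-2-macroglobulin family 0 to 1 and 0, also 0 with FPKM of at least 1 in 3 samples, those of the other inhibitors 2 to 5, and those of the retinoid list 5 to 8 and 5, also 5 with that filter. On counts in place of FPKM, which favours long genes, the share of Reck rose by 4.04 percentage points in place of 1.57 and that of A2m by 0.133 in place of 0.048, while that of Timp1 differed by 0.685 in place of 1.73. The Timp1 difference ran from 0.458 to 2.52 with a sample left out, lowest without CON sample 1, and that of A2m from 0.0268 without RA sample 1 to 0.084 without RA sample 3. The labels do not say whether samples with the same replicate number were paired. The deviations of same-numbered samples correlated at 0.0928, -0.0123 and 0.0118, against -0.122 to 0.11 for samples of unlike number. With 3 samples per group, this check cannot settle whether they were paired. With the number as a replicate block, the log2 fold changes were -0.91 for Timp3, 0.24 for Timp2 and 0.40 for Reck, all with the same call, and 684 genes were DEGs. Timp4 and A2m had 21 to 76 and 252 to 458 reads per sample, and their FPKM varied by 45.0% and 19.4% of the mean in CON and by 15.1% and 27.8% in RA.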
